A study of Homo sapiens with 4 samples.

Results

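The peaks of chromosome 19 that are not assigned to a gene whose symbol starts with ZNF were examined in a ChIP-seq comparison of 2 forms of ZHX2. They are all rows of the authors' deposited comparison table that lie on chromosome 19 and carry another gene name, taken in order of their start. The rule found 754 peaks of 8871 in the table. Another 101 peaks of the chromosome carry a ZNF name and were left out, and 8016 peaks lie on other chromosomes or contigs. The chromosome itself was selected on the deposited log2 folds, with its surplus of peaks higher in Mut4 known, so the direction of these peaks is given as a description and not as a test.

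DB cells, a human lymphoma line of the diffuse large B-cell type, were studied in a Mut4 arm (labelled DB-ZHX2-Mut4) and a ZHX2 arm (labelled DB-ZHX2). The stated question was which downstream molecules differ between the arms, in a study on phase separation of ZHX2, ferroptosis and SLC3A2. Each arm gave 1 chromatin immunoprecipitation with an antibody against ZHX2 and 1 input, and the inputs were not analysed here. The labels do not say which residues Mut4 alters, how either form was introduced, or whether ZHX2 of the cells' own remains, to which the antibody would bind as well. With 1 ChIP library per arm there is no replicate check, and no difference below was tested between the conditions.

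ZHX2 is a nuclear protein with zinc fingers and homeodomains that binds DNA and acts on transcription, mostly described as a repressor. Phase separation is the gathering of proteins into liquid-like droplets, which for DNA-binding factors has been linked to clustering on chromatin. Chromosome 19 is known for its very high density of genes, its GC-rich sequence and its clusters of zinc-finger genes, so a promoter-binding factor meets many housekeeping start sites there in a short distance.

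The promoter sequences that overlap 9 of the peaks show the kind of DNA at stake. They were chosen after the values were seen, as 6 promoters whose peak was higher in Mut4 and 3 whose peak was lower. Each runs from 250 bases before to 50 bases after a RefSeq start site on GRCh38.p14, on the gene's own strand. Capitals mark matches, on either strand, to CCAAT (bound by NF-Y), CCGGAAG (the core of ETS factors), CACGTG (the E-box) and the palindrome of NRF1, and where they overlap the run of capitals is shared. A match is a description of the letters and not a site of binding.
The first 6 are those higher in Mut4, and the windows of MAP2K7, RANBP3 and SMG9 each hold the NRF1 palindrome.
MAP2K7, chr19:7903627-7903926, plus strand: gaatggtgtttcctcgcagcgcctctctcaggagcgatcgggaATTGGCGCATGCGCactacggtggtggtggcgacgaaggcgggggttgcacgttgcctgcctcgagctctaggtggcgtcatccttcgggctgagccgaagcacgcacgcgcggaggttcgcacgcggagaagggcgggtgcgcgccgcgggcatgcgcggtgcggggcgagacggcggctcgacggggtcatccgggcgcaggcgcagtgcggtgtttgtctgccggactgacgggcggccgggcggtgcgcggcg
RANBP3, chr19:5978091-5978390, minus strand: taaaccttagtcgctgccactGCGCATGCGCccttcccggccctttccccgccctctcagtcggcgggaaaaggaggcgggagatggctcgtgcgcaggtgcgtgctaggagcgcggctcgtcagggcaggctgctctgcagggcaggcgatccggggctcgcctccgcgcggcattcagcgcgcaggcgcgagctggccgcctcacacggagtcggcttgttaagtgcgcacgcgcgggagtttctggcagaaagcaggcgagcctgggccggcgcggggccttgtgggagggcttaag
SMG9, chr19:43754913-43755212, minus strand: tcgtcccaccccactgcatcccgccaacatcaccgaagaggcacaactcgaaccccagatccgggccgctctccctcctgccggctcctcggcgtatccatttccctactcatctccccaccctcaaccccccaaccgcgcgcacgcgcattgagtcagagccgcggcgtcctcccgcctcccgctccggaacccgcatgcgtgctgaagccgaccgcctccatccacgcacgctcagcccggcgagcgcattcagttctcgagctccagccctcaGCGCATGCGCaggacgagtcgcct
LENG8, chr19:54448949-54449248, plus strand: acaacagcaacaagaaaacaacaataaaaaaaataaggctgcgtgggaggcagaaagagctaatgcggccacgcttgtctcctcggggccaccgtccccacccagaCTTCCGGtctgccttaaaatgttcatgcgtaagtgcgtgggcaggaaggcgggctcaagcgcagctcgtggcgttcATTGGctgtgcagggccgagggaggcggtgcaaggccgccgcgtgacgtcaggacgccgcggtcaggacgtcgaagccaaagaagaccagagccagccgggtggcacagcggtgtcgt
DUS3L, chr19:5791114-5791413, minus strand: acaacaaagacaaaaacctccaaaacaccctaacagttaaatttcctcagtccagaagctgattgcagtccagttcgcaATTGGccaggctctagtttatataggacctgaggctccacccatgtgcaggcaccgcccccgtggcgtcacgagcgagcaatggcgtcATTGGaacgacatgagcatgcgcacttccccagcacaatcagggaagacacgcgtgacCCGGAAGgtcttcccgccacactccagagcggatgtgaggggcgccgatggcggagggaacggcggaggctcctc
MZF1, chr19:58573286-58573585, minus strand: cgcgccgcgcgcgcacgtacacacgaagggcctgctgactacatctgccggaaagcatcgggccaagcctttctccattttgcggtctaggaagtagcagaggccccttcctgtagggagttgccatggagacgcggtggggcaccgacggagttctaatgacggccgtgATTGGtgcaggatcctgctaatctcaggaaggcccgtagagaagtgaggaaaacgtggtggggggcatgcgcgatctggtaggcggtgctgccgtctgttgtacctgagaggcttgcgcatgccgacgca
The next 3 are those lower in Mut4.
USF2, chr19:35268712-35269011, plus strand: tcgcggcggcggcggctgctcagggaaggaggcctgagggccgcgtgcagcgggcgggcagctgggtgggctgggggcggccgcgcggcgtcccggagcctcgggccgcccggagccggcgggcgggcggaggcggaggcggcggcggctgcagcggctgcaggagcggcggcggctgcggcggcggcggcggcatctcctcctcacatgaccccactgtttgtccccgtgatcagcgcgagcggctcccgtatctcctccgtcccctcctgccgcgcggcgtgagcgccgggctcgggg
GNA11, chr19:3094112-3094411, plus strand: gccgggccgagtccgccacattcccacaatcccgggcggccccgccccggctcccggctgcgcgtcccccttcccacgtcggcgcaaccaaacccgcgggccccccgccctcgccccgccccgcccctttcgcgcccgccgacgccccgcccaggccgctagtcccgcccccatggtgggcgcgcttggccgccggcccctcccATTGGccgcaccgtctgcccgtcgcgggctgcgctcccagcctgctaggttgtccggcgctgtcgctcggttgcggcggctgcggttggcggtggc
CARM1, chr19:10872179-10872478, plus strand: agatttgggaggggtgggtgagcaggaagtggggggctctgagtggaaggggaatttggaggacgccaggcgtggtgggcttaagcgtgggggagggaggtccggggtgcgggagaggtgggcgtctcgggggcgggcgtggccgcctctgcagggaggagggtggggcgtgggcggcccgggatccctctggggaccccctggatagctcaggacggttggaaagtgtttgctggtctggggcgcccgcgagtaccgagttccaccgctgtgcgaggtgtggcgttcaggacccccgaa
The GC content of these windows was 71.7% at MAP2K7, 69.7% at RANBP3, 67.7% at SMG9, 60.3% at LENG8, 57.3% at DUS3L and 61.0% at MZF1. It was 80.3% at USF2, 79.3% at GNA11 and 69.0% at CARM1. The USF2 and CARM1 windows hold none of the 4 capitalised motifs, and the GNA11 window holds 1 CCAAT. Matches to GGGCGG, the GC box of SP1 factors, which is not capitalised, numbered 3 at MAP2K7, 1 each at RANBP3 and DUS3L and 0 at SMG9, LENG8 and MZF1, against 5 at USF2, 7 at GNA11 and 2 at CARM1. Since these 9 were picked, their contrast in motifs and GC boxes does not stand for all peaks. Of the 319 peaks with a RefSeq window only 15 overlap a window with the NRF1 palindrome. Under the authors' scaling 64.0% of those with GGGCGG were higher in Mut4, against 68.2% without it. The window shown is the one of the named gene nearest the centre of its peak, and some peaks cover others. The LENG8 peak also covers a LENG8 window of 74.7% GC, the CARM1 peak a CARM1 window of 82.3% GC with 5 matches to GGGCGG, and the MZF1 peak a second MZF1 window of 60.7% GC. The MAP2K7, RANBP3 and LENG8 peaks each also cover the window of another RefSeq gene (LOC124904630, RANBP3-DT and LENG8-AS1 in that order).

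The peaks were spread over nearly the whole chromosome on hg38. The first was the promoter peak of LINC01002, whose start is 246154, and the last was the promoter peak of AC016629.3, which ends at 58575758. The median gap between neighbouring peaks was 18.6 kb, with quartiles of 6.37 and 60.1 kb, and the largest was 4.87 Mb. The peaks carried 578 gene names, of which 453 had 1 peak, 90 had 2 and 35 had 3 or more. Protein-coding genes were named at 634 peaks and long noncoding RNA genes at 76. A name goes by the nearest transcript start in the authors' annotation, so a peak can lie inside a neighbouring gene.

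Genes of chromosome 19 had a listed peak more often than genes elsewhere. Of 1201 RefSeq coding genes of the chromosome outside the ZNF family, 451 had a peak (37.6%, exact 95% interval 34.8 to 40.4%), against 5217 of 18605 genes on other chromosomes (28.0%, 27.4 to 28.7%). Of the RefSeq start-site windows there, 28.4% lay under a listed peak (26.3 to 30.7%), against 20.6% on other chromosomes (20.2 to 21.0%). In both counts the intervals were apart, and both cover counting error over genes and not error between libraries.

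The annotation of the peaks differed from that of the other chromosomes mainly at transcript ends. There were 405 promoter peaks (53.7%, 50.1 to 57.3%, against 56.9% elsewhere), 119 in introns, 94 in exons, 86 at transcript ends and 50 between genes. Transcript ends held 11.4% of the peaks (9.23 to 13.9%) against 3.84% elsewhere (3.43 to 4.29%), the highest share among the 23 chromosomes with peaks counted. Exons held 12.5% (10.2 to 15.0%) against 9.14% (8.52 to 9.80%), and intergenic sites 6.63% (4.96 to 8.65%) against 11.2% (10.5 to 11.9%). Peak length had a median of 1002 bp, against 947 bp on other chromosomes.

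**Figure D1:**
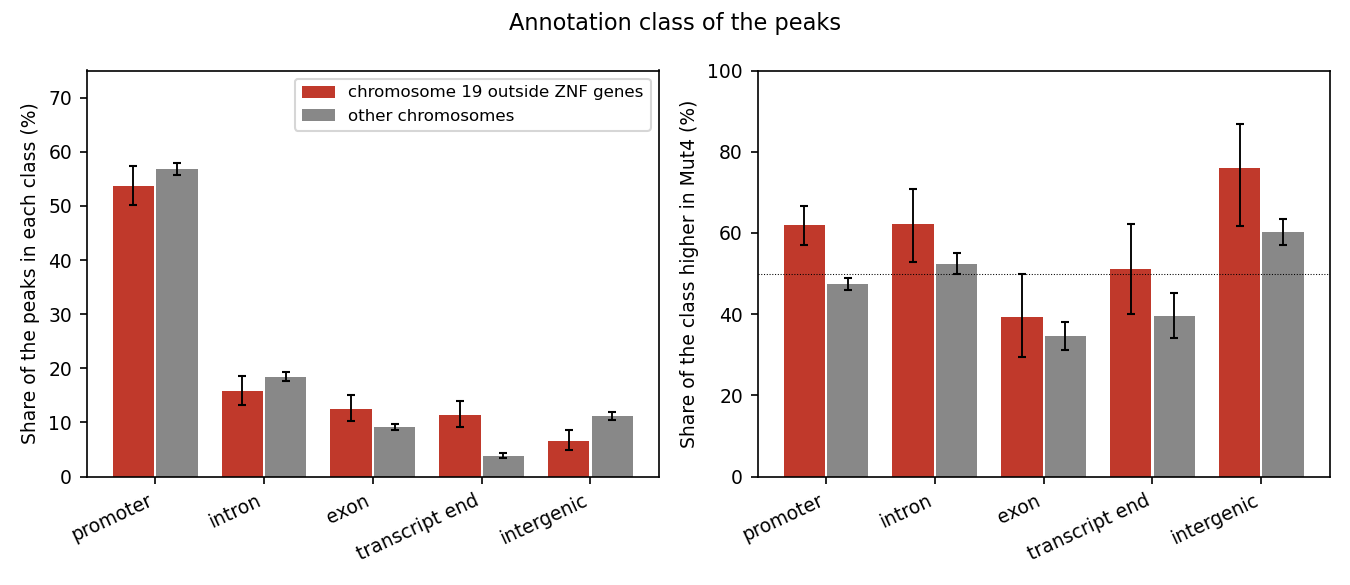
Share of peaks in each annotation class (left) and share of each class with a higher scaled signal in Mut4 (right), both in percent, for the 754 chromosome 19 peaks outside ZNF genes and the 8016 peaks of other chromosomes. Bars are shares and lines are exact 95% counting intervals. Transcript ends take 11.4% of the chromosome 19 peaks against 3.84%, and the shares on the right hold for the authors' scaling only, since without scaling 4.91% of the chromosome 19 peaks had more reads in Mut4.

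The authors marked each peak by the libraries in which it was found. Of the 754 peaks, 16 were marked in Mut4 only (2.12%), 41 were common to both (5.44%, 3.93 to 7.30%) and 697 were marked in ZHX2 only (92.4%). On other chromosomes 1.73% of peaks were common (1.46 to 2.04%), and the chromosome 19 share was the highest of 23 chromosomes. Of the 41 common peaks, 33 lay at promoters, among them those of RPL13A and RPL18, both ribosomal protein genes, and of TIMM13, ATP5F1D and NDUFA7, 3 genes of mitochondrial function.

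The reads of each library were solved from the deposited values, and a fold below is the Mut4 reads over the ZHX2 reads after the authors' scaling of the libraries. The peaks summed to 24041 reads in Mut4 and 47884 in ZHX2, which is 8.85% and 8.84% of the reads in all listed peaks. A peak held a median of 25 reads in Mut4 (quartiles 16 and 39) and 48.5 in ZHX2 (quartiles 32.3 and 72). The listed peaks held 271694 reads in Mut4 and 541900 in ZHX2 in all, and the scaling divides the ratio of reads by 0.467. Each fold has an exact 95% interval that covers counting error only, since the reads carry no molecular identifiers and may include copies of 1 molecule.

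Under that scaling the chromosome 19 peaks were more often higher in Mut4. The fold was above 1 at 444 peaks and below 1 at 310 (background 50.4%), so 58.9% were higher (55.3 to 62.4%) against 49.6% of all listed peaks. The median log2 fold was 0.12 (0.07 to 0.18), against -0.02 on other chromosomes, and it ranked 4th of 23 chromosomes after chromosomes 7, 21 and 20. Past 2-fold, 55 peaks were higher (7.29%, background 5.33%) and 52 lower (6.90%, background 8.5%). The interval lay above 1 at 122 peaks (16.2%, background 11%) and below 1 at 73 (9.68%, background 11%). These directions are relative to the authors' scaling: with reads left unscaled the median log2 fold was -0.98, and 4.91% of the peaks were higher.

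By the authors' deposited table, 40 of the peaks were higher in Mut4 with an adjusted p under 0.05 (background 3.43%) and 20 were lower (background 2.53%). Those p-values compare 2 libraries and not the conditions. The smallest adjusted p of the authors' deposited table among them was 2.8e-75, at FZR1.

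A count that needs no scaling is the number of peaks with more reads in Mut4 than in ZHX2, although ZHX2 had the larger library. There were 37 such peaks of 754 (4.91%, 3.48 to 6.70%, background 4.06%), against 318 of 8016 on other chromosomes (3.97%, 3.55 to 4.42%). The intervals overlap, so the chromosome did not stand apart by this count. Of the 37, 26 lay at promoters, 15 were marked in Mut4 only, 11 were common and 11 were marked in ZHX2 only.

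**Figure D2:**
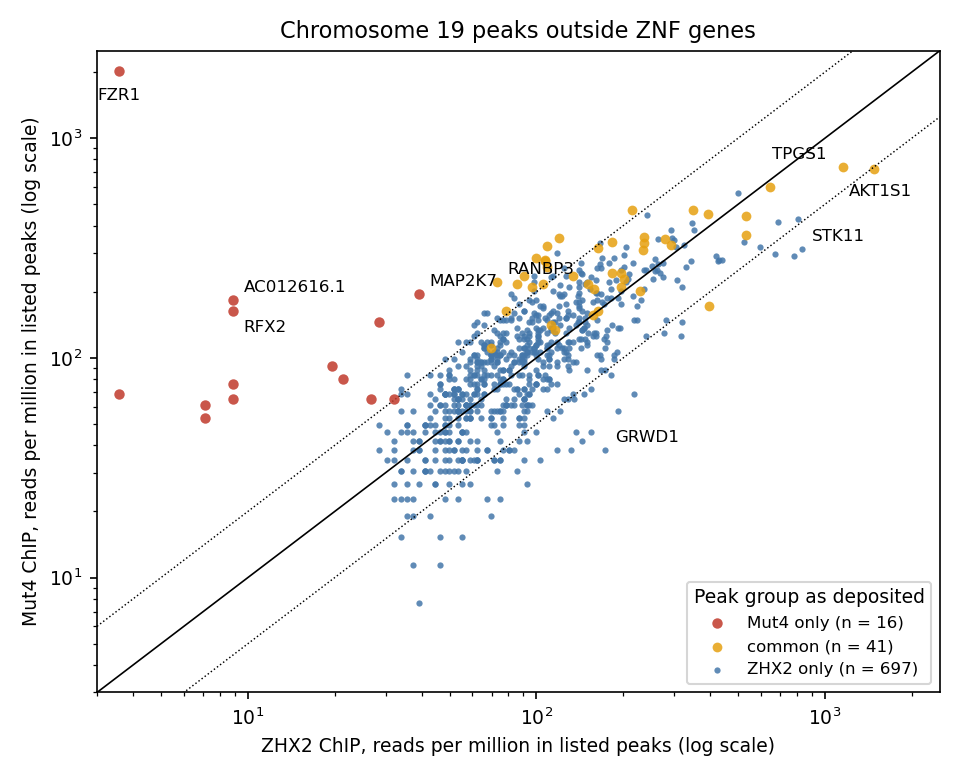
Signal of each of the 754 peaks in Mut4 (vertical) against ZHX2 (horizontal), in CPM of listed peaks after the authors' scaling, both on log scales. Points are peaks coloured by the authors' group, the solid line marks equal signal and the dotted lines a 2-fold difference; FZR1 stands alone at the upper left with 532 reads in Mut4 and 2 in ZHX2, and AKT1S1 and TPGS1 lie at the upper right below the line of equal signal.

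FZR1 had the strongest peak of the chromosome in Mut4. FZR1 encodes an activator of the anaphase-promoting complex, the ubiquitin ligase that ends mitosis. Its peak, chr19:3525871-3526361, spans 490 bp at a start site and held 532 reads in Mut4 and 2 in ZHX2, a fold of 569.6 (157 to 4716). The start site is one of the authors' annotation, and no RefSeq start-site window lies under the peak. That single peak holds more Mut4 reads than any other of the 754, and without it the peaks took 8.65% of the Mut4 reads in place of 8.85%. The median log2 fold without FZR1 was again 0.12.

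The other peaks marked in Mut4 only were short and mostly shallow. The 16 had a median length of 192 bp (158 to 490 bp), against 1191 bp for the common peaks and 1004 bp for those marked in ZHX2 only. They lay at 8 promoters, 4 intergenic sites, 3 exons and 1 transcript end, and the interval lay above 1 at 15 of them. The group holds peaks found in Mut4 alone, so folds above 1 were favoured in advance. Over all listed peaks marked in Mut4 only, 210 of 210 were higher and the interval lay above 1 at 204. At RFX2, a gene for a transcription factor of ciliated cells, 43 reads in Mut4 stood against 5 in ZHX2, a fold of 18.4 (7.31 to 59.6). The intergenic peak nearest AC012616.1 had 48 reads in Mut4 and 5 in ZHX2 (20.6, 8.22 to 66.2).
MAP2K7, which encodes a kinase that activates JNK, had 51 reads in Mut4 and 22 in ZHX2 (4.96, 2.96 to 8.60). MCOLN1, which encodes a cation channel of lysosomes, had 38 in Mut4 and 16 in ZHX2 (5.09, 2.77 to 9.77). MAP2K7 and MCOLN1 had the largest ZHX2 reads of the 5 strongest, so both had some signal in ZHX2 as well. At CGB7, a gene of the chorionic gonadotropin cluster, 15 reads in Mut4 stood against 1 in ZHX2 (32.1, 4.94 to 1352). The authors' deposited table gives an adjusted p of 2.6e-11 at RFX2, 1.8e-12 at AC012616.1 and 1.9e-06 at MAP2K7. Since these peaks were grouped by their signal in Mut4, their folds and adjusted p-values are no separate support.

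Among peaks of at least the median signal, the largest folds after FZR1 and MAP2K7 were mostly at promoters. RANBP3, a cofactor of nuclear export, had 58 reads in Mut4 and 41 in ZHX2, a fold of 3.03 (2.00 to 4.64). LENG8 had 85 in Mut4 and 61 in ZHX2 (2.98, 2.12 to 4.22). TIMM13, a chaperone of mitochondrial protein import, had 92 in Mut4 and 67 in ZHX2 (2.94, 2.12 to 4.09). All 3 had more reads in Mut4 before any scaling, although the Mut4 library was the smaller one.
AC016590.1, at an intron, had 75 reads in Mut4 and 56 in ZHX2 (2.87, 2.00 to 4.13). DUS3L, an enzyme that makes dihydrouridine in RNA, had 73 in Mut4 and 60 in ZHX2 (2.61, 1.83 to 3.73). MZF1, a zinc-finger factor first described in myeloid cells, had 62 in Mut4 and 51 in ZHX2 (2.60, 1.77 to 3.85). POLR2I, a subunit of RNA polymerase II, had 72 in Mut4 and 60 in ZHX2 (2.57, 1.80 to 3.68). MRPL54, a protein of the mitochondrial ribosome, had 79 in Mut4 and 66 in ZHX2 (2.56, 1.83 to 3.61). Of these 8 peaks 7 were common to both libraries, the exception being MRPL54, marked in ZHX2 only.

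The largest folds in the other direction lay at promoters, exons and transcript ends. An exonic peak of GRWD1, a gene for a histone-binding protein, had 10 reads in Mut4 and 97 in ZHX2, a fold of 0.221 (0.103 to 0.424). The interval is wide because the Mut4 library had few reads there. A second GRWD1 peak, whose start is 48445627, went the other way, with a deposited log2 fold, ZHX2 over Mut4, of -0.87.
LILRB2, an inhibitory receptor of myeloid cells, had 12 reads in Mut4 and 87 in ZHX2 (0.295, 0.147 to 0.543). The promoter of USF2, an E-box factor, had 15 in Mut4 and 108 in ZHX2 (0.297, 0.161 to 0.513). A transcript-end peak of RFX1, from the same factor family as RFX2, had 18 in Mut4 and 122 in ZHX2 (0.316, 0.181 to 0.521). This RFX1 peak and the RFX2 promoter peak lay on opposite sides of equal signal. A second RFX2 peak, whose start is 6110026, was near equal signal, with a deposited log2 fold, ZHX2 over Mut4, of 0.011. AC011466.4 had 12 in Mut4 and 77 in ZHX2 (0.334, 0.165 to 0.617).

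Deep peaks gave tighter values in the same direction. AC004528.2 had the longest peak of the chromosome, 5893 bp, with 76 reads in Mut4 and 437 in ZHX2 (0.372, 0.288 to 0.476). A transcript-end peak of 4956 bp named for STK11, the LKB1 kinase that activates AMPK, had 82 in Mut4 and 466 in ZHX2 (0.377, 0.294 to 0.477). The adjusted p of the authors' deposited table was 8.0e-06 at AC004528.2 and 7.8e-06 at this STK11 peak. Both were marked in ZHX2 only. Peaks so marked were found through that library, so low folds and small adjusted p-values among them are no separate support. Of the 697 peaks in that group 395 were higher in Mut4 and 302 lower under the authors' scaling. The promoter of STK11 itself had 38 reads in Mut4 and 65 in ZHX2, and its interval spanned 1 (1.25, 0.816 to 1.90). An exonic peak of POLRMT, the mitochondrial RNA polymerase, also marked in ZHX2 only, had 33 in Mut4 and 178 in ZHX2 (0.397, 0.265 to 0.578).

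The 5 peaks of highest mean signal were FZR1 and 4 peaks with more reads in ZHX2. AKT1S1, the PRAS40 subunit that restrains mTORC1, had 190 reads in Mut4 and 831 in ZHX2 at its promoter (0.490, 0.416 to 0.574). TPGS1, a subunit of tubulin polyglutamylase, had 193 in Mut4 and 647 in ZHX2 (0.639, 0.541 to 0.751). ZC3H4, a zinc-finger protein that limits noncoding transcription, had 112 in Mut4 and 453 in ZHX2 (0.529, 0.427 to 0.652). PTBP1, a repressor of splicing, had 158 in Mut4 and 363 in ZHX2, and its interval spanned 1 (0.932, 0.768 to 1.13). FEM1A and FUZ, the next of the common peaks by signal, had 116 and 95 reads in Mut4, against 299 and 298 in ZHX2.

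Direction went with annotation class. At promoters 251 of 405 peaks were higher in Mut4 (62.0%, 57.1 to 66.7%), with a median log2 fold of 0.18. In exons 37 of 94 were higher (39.4%, 29.4 to 49.98%), with a median of -0.30, and at transcript ends 44 of 86 (51.2%, 40.1 to 62.1%). Between genes 38 of 50 were higher (76.0%, 61.8 to 86.9%), with a median of 0.50. The counting interval lay above 1 at 13 of these 50 (26.0%) and below 1 at 0, against 186 (20.8%) and 68 (7.60%) of 895 intergenic peaks of other chromosomes. Of the 50, 4 were marked in Mut4 only, a group in which folds above 1 were favoured in advance. So were 8 of the promoter peaks, 3 of those in exons and 1 at a transcript end. On other chromosomes the shares higher in Mut4 were 47.4% at promoters, 34.5% in exons, 39.6% at transcript ends and 60.2% between genes, so each of these 4 shares was lower than on chromosome 19 and their order was the same.

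Signal also went with direction, while length showed no clear trend among these peaks. In the lowest quartile of mean signal, set over all listed peaks, 58 of 149 chromosome 19 peaks were higher in Mut4 (38.9%, 31.1 to 47.2%), and in the highest quartile 150 of 232 were (64.7%, 58.1 to 70.8%). On other chromosomes these shares were 36.9% in the lowest and 51.3% in the highest quartile. In the longest quartile of peaks 118 of 220 were higher (53.6%), with 38 intervals above 1 and 38 below 1. Within 250 bp of a start site 208 of 334 peaks were higher (62.3%, 56.8 to 67.5%), against 46.6% on other chromosomes (45.0 to 48.1%).

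Along the chromosome the median log2 fold was above 0 in 10 of 12 windows of 5 Mb, under the authors' scaling. From 5 to 10 Mb, 44 of 61 peaks were higher in Mut4 (72.1%, 59.2 to 82.9%), with a median of 0.28 and with 21 intervals above 1 and 2 below 1, where the whole set of 754 has 16.2% above 1 and 9.68% below 1 and all listed peaks have 11% on each side. This window holds 5 of the 16 peaks marked in Mut4 only, for which folds above 1 were favoured in advance. RFX2, MCOLN1 and MAP2K7 are among them. It also holds RANBP3, DUS3L, MICOS13 and GTF2F1. From 15 to 20 Mb, 36 of 77 were higher (46.8%, 35.3 to 58.5%), with a median of -0.07 and with 3 intervals above 1 and 10 below 1. That window holds PIK3R2 and CERS1.
From 55 to 60 Mb, at the end of the long arm, 35 of 52 peaks were higher (67.3%), with a median of 0.34. From 0 to 5 Mb, the densest window with 185 peaks, 102 were higher (55.1%) and the intervals above and below 1 were 21 each. From 20 to 35 Mb, around the centromere, the 3 windows held 7, 3 and 17 peaks.

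**Figure D3:**
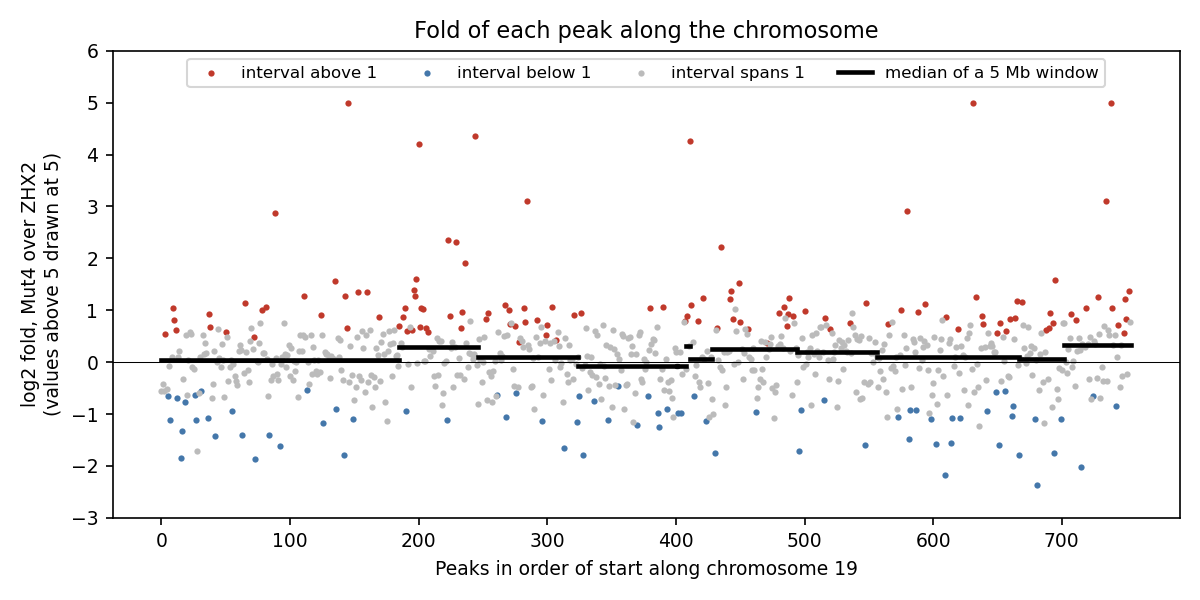
Log2 fold, Mut4 over ZHX2, of the 754 peaks in order of their start along chromosome 19, with values above 5 drawn at 5. Points are peaks coloured by whether the exact 95% counting interval lies above, below or across a fold of 1, and black bars are medians of 5 Mb windows; the window from 5 to 10 Mb has a median of 0.28 and the one from 15 to 20 Mb of -0.07 under the authors' scaling, and each falls by 1.10 without it.

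Nearby peaks could lie on opposite sides of 1 under the authors' scaling. In the 65.2 kb from FUZ to AKT1S1 there were 6 peaks, 4 of them common to both libraries. FUZ, an effector of planar cell polarity, had 95 reads in Mut4 and 298 in ZHX2 (0.683, 0.536 to 0.863). MED25, a Mediator subunit, had 93 in Mut4 and 132 in ZHX2 (1.51, 1.14 to 1.98). The fold at MED25 was above 1 while that at FUZ and AKT1S1 was below 1, with no overlap of their intervals. The gap between these folds does not depend on the scaling, but the side of 1 does: MED25 had fewer reads in Mut4 than in ZHX2 before scaling, as did FUZ and AKT1S1.
In the 64.3 kb from STK11 to CIRBP there were 11 peaks, among them the long transcript-end peak of STK11 with its fold of 0.377. After it came a CBARP peak and then the promoter of ATP5F1D, a subunit of ATP synthase. That promoter had 123 reads in Mut4 and 120 in ZHX2 (2.19, 1.69 to 2.85). CIRBP, a cold-inducible RNA-binding protein, had 4 peaks in this stretch, and the intervals of all 4 spanned 1.

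GC content of the start-site window could be set for the 319 peaks with a RefSeq window under them, as the mean over windows where there were several. Spearman's rho between GC content and log2 fold was -0.18 over these peaks and -0.17 over 4298 peaks of other chromosomes, given as a description since the peaks share 2 libraries. In the bin of highest GC content, above 74.7%, 26 of 53 peaks were higher in Mut4 (49.1%, 35.1 to 63.2%), against 32.8% on other chromosomes. In the other 4 bins the chromosome 19 shares lay between 63.3% and 75.4%, against 45.7% to 55.7% elsewhere. The share was above that of the other chromosomes in each of the 5 bins. The median GC content of windows under the peaks was 67.0%, against 68.0% under peaks of other chromosomes, and its part in the direction was not tested.

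**Figure D4:**
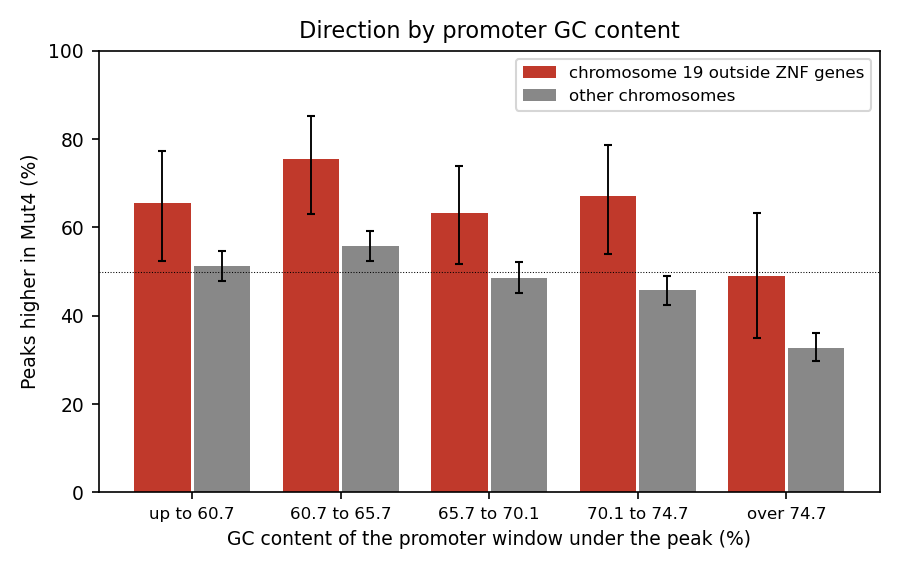
Share of peaks higher in Mut4, in percent, by GC content of the RefSeq start-site window under the peak, for chromosome 19 peaks outside ZNF genes and for peaks of other chromosomes. Bars are shares under the authors' scaling and lines are exact 95% counting intervals; the share in the bin of highest GC content is 49.1% against 32.8%, and these shares rest on that scaling, without which 4.91% of all the chromosome 19 peaks were higher.

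For 6 motifs searched on both strands, the share of windows that hold a match ranged widely. GGGCGG was in 79.6% of the windows under the chromosome 19 peaks, against 76.0% under other peaks and 45.0% of all promoters. CCAAT was in 35.4%, against 31.5% and 34.6%, CCGGAAG in 20.0%, against 18.9% and 10.3%, and CACGTG in 9.35%, against 10.4% and 7.26%. TGACGTCA, the element bound by CREB and ATF factors, was in 4.78%, against 4.16% and 1.85%. The NRF1 palindrome was in 4.57%, against 2.02% and 1.24%. Over all start-site windows of chromosome 19 outside ZNF genes the shares were 61.3% for GGGCGG, 34.9% for CCAAT and 13.0% for CCGGAAG. They were 7.64% for CACGTG, 2.80% for TGACGTCA and 2.42% for the NRF1 palindrome.
Peaks that overlap a window with the NRF1 palindrome were mostly higher in Mut4, as at MAP2K7, RANBP3 and SMG9 whose sequences are printed here. The match itself can lie outside the peak. At SMG9 the peak covers only the edge of the window, and the palindrome lies outside the peak. Of the 15 peaks that overlap a window with the palindrome 13 were higher (86.7%, 59.5 to 98.3%), with a median log2 fold of 0.86. Without the palindrome 193 of 304 were higher (63.5%), with a median of 0.19. The interval of the share without it is 57.8 to 68.9% and overlaps that of the share with it. The counting interval of the fold lay above 1 at 10 of the 15 and below 1 at 0, against 68 of 304 above 1 (22.4%) and 29 below 1 (9.54%) without the palindrome, while 11% of all listed peaks lay on each side. Among them, SMG9, a factor of nonsense-mediated decay, had 31 reads in Mut4 and 30 in ZHX2 (2.21, 1.30 to 3.78). CHMP2A, an ESCRT subunit, had 37 in Mut4 and 34 in ZHX2 (2.33, 1.42 to 3.83) at the far end of the long arm. SIRT6, a histone deacetylase, had 39 in Mut4 and 46 in ZHX2 (1.82, 1.15 to 2.84). On other chromosomes 70 of 108 peaks that overlap a window with the palindrome were higher (64.8%), against 46.2% of those without it.
With CCGGAAG 53 of 72 peaks were higher (73.6%), against 153 of 247 without it (61.9%), and with CACGTG 30 of 37 (81.1%), against 176 of 282 (62.4%). With CCAAT 84 of 132 were higher (63.6%), against 122 of 187 without it (65.2%). With GGGCGG 176 of 275 were higher (64.0%, 58.0 to 69.7%), against 30 of 44 without it (68.2%, 52.4 to 81.4%). With TGACGTCA 11 of 20 were higher (55.0%, 31.5 to 76.9%), against 195 of 299 without it (65.2%, 59.5 to 70.6%). For both of these motifs the intervals with and without it overlap. Without scaling the medians of all these sets fall below 0.

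Gene groups are given next by 1 peak per gene, the one nearest a start site. Where a gene has other peaks, these do not enter the list counts unless said. Over the 578 genes 345 were higher in Mut4 and 233 lower, the median log2 fold was 0.14, and the interval lay above 1 at 106 genes and below 1 at 57. Each list below is a description beside these values, and every list median falls below 0 with reads left unscaled, which shifts all log2 folds by -1.10.

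**Figure D5:**
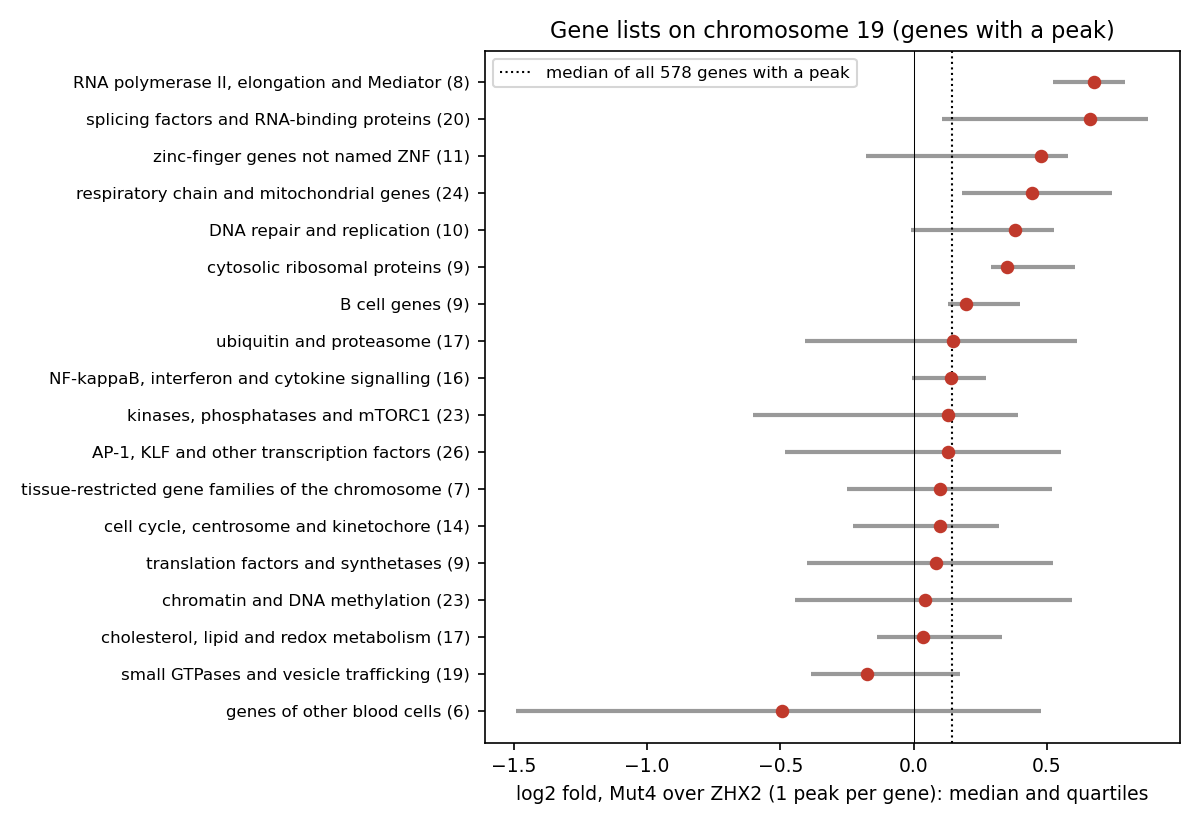
Log2 fold, Mut4 over ZHX2, for 18 lists of chromosome 19 genes with 1 peak per gene. Points are medians, bars run between the quartiles, numbers in brackets are genes with a peak, and the dotted line is the median of all 578 genes (0.14); the RNA polymerase II list is highest (0.67) and genes of other blood cells lowest (-0.49) under the authors' scaling, and all medians fall below 0 without it.

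Genes for mitochondria were mostly higher in Mut4 under the authors' scaling. Of 38 listed genes 24 had a peak, 21 were higher and 3 lower, the median log2 fold was 0.45, and the interval lay above 1 at 12 and below 1 at 0. Over all 33 peaks of these genes the interval lay above 1 at 12 and below 1 at 3. Beside TIMM13, MRPL54 and ATP5F1D these include MICOS13, a subunit of the complex that shapes inner-membrane folds, with 57 reads in Mut4 and 59 in ZHX2 (2.07, 1.41 to 3.03). TIMM50, a receptor of the inner-membrane import channel, had 39 in Mut4 and 44 in ZHX2 (1.90, 1.20 to 2.99), and TIMM29 had 31 in Mut4 and 33 in ZHX2 (2.01, 1.19 to 3.39). LONP1, the protease of the mitochondrial matrix, had 75 in Mut4 and 104 in ZHX2 (1.54, 1.13 to 2.10). The 3 lower genes, NUDT19, UQCRFS1 and MRPL4, had folds from 0.826 to 0.998 and intervals across 1.

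Genes of transcription and RNA processing went the same way under that scaling. In the list of RNA polymerase II, elongation and Mediator 8 of 17 genes had a peak, all 8 were higher, the median log2 fold was 0.67, and the interval lay above 1 at 5. POLR2I led it, followed by GTF2F1, the large subunit of TFIIF, with 62 reads in Mut4 and 64 in ZHX2 (2.07, 1.44 to 2.99). SUPT5H, the elongation factor SPT5, had 51 in Mut4 and 67 in ZHX2 (1.63, 1.11 to 2.38). The list also counts NFIC, a DNA-binding factor, and POLD1, a DNA polymerase subunit, which are not part of this machinery.
Of 36 splicing and RNA-binding genes 20 had a peak, 16 being higher and 4 lower, the median was 0.66, and intervals lay above 1 at 7 and below 1 at 1. U2AF2, which binds the polypyrimidine tract at splice sites, had 68 reads in Mut4 and 61 in ZHX2 (2.39, 1.66 to 3.43). SNRNP70, a protein of the U1 particle, had 51 in Mut4 and 46 in ZHX2 (2.37, 1.56 to 3.62). HNRNPUL1, an RNA-binding protein, was the one below 1, with 109 in Mut4 and 385 in ZHX2 (0.606, 0.486 to 0.752). U2AF2 and SNRNP70 had more reads in Mut4 before scaling, and HNRNPUL1 was among the deepest peaks of the list.

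Ribosomal protein genes with a peak had folds in 1 direction. Of 13 genes on the chromosome 9 had a peak, 9 were higher and 0 lower under the authors' scaling, the median log2 fold was 0.35, and the interval lay above 1 at 3. These were RPS15 with 43 reads in Mut4 and 44 in ZHX2 (2.09, 1.34 to 3.26), RPS16 with 34 in Mut4 and 35 in ZHX2, at an intergenic peak 3507 bp away, and RPL36 with 71 in Mut4 and 100 in ZHX2. Translation factors and synthetases were divided, 5 higher and 4 lower of 9, with DHPS, the enzyme that makes hypusine in a translation factor, at 61 reads in Mut4 and 63 in ZHX2 (2.07, 1.43 to 2.996).

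Chromatin genes were divided. Of 31 genes 23 had a peak, 12 were higher and 11 lower, the median log2 fold was 0.04, and the interval lay above 1 at 4 and below 1 at 3. Those below 1 included ARID3A with 15 reads in Mut4 and 68 in ZHX2 (0.472, 0.251 to 0.835), and CARM1, an arginine methyltransferase of histones, with 17 in Mut4 and 76 in ZHX2 (0.479, 0.265 to 0.818). Above 1 lay SUPT5H, SIRT6, TFPT and SMARCA4, the BRG1 ATPase of SWI/SNF remodellers, with 45 in Mut4 and 58 in ZHX2 (1.66, 1.10 to 2.50).

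Transcription factors spanned the whole range. Of 42 genes 26 had a peak, 14 were higher and 12 lower, the median was 0.13, and the interval lay above 1 at 7 and below 1 at 4. The 4 below were USF2, RFX1, ARID3A and KLF2, and the 7 above included RFX2, MZF1, ATF5 and LYL1. ATF5, a factor of stress responses, had 58 reads in Mut4 and 55 in ZHX2 (2.26, 1.53 to 3.33). The AP-1 members JUNB and JUND had 18 and 48 reads in Mut4, against 53 and 129 in ZHX2, with both intervals across 1. Of 11 zinc-finger genes named otherwise than ZNF 8 were higher, led by MZF1 and by ZFP30 with 64 in Mut4 and 80 in ZHX2 (1.71, 1.21 to 2.41).

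Signalling genes had folds on both sides of 1. Peaks lay at 23 kinase, phosphatase and mTORC1 genes, 12 of them higher and 11 lower, with intervals above 1 at 4 and below 1 at 6. The 6 were GNA11, PIK3R2, MAST1, LMTK3, AKT1S1 and PRKCSH. GNA11, a G protein alpha subunit, had 7 reads in Mut4 and 52 in ZHX2 (0.288, 0.110 to 0.637). PIK3R2, a regulatory subunit of PI3 kinase, had 45 in Mut4 and 222 in ZHX2 (0.434, 0.308 to 0.600). The median of this list was 0.13, and -0.09 when the strongest peak stood for a gene.
Of 19 genes of small GTPases and vesicle trafficking 13 were lower and 6 higher under the authors' scaling, the median being -0.17, and intervals lay above 1 at RANBP3 and NAPA and below 1 at RASIP1. Of 17 ubiquitin and proteasome genes 9 were higher and 8 lower, with UBE2S, an enzyme that extends ubiquitin chains for the anaphase-promoting complex, at 67 reads in Mut4 and 70 in ZHX2 (2.05, 1.44 to 2.91). CDC34, a ubiquitin-conjugating enzyme, had 53 in Mut4 and 55 in ZHX2 (2.06, 1.39 to 3.07). KEAP1, which directs NRF2 to degradation, had 73 in Mut4 and 242 in ZHX2 (0.646, 0.490 to 0.842).

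Genes of lipid and redox metabolism lay near equal signal. Peaks lay at 17, of which 10 were higher and 7 lower, the median was 0.03, and the interval lay above 1 at PNPLA6 alone and below 1 at KEAP1 and CERS1. GPX4, which reduces lipid peroxides and is the best known brake on ferroptosis, had 46 reads in Mut4 and 96 in ZHX2 (1.03, 0.706 to 1.47). FTL, the ferritin light chain, had 33 in Mut4 and 48 in ZHX2 (1.47, 0.915 to 2.34), and SLC1A5, a glutamine transporter, had 39 in Mut4 and 61 in ZHX2 (1.37, 0.892 to 2.08). The intervals of these 3 spanned 1, which does not show equal binding. CERS1, a ceramide synthase, had 8 in Mut4 and 41 in ZHX2 (0.418, 0.169 to 0.903).

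Peaks near markers of blood cell types are given as a description, since they cannot check the B cell label. Of 8 B cell markers on the chromosome 5 had a peak (CD37, CD79A, MEF2B, POU2F2 and TCF3), with 11 peaks in all, and of 13 markers of other blood cells 4 had one (ELANE, EPOR, GP6 and LILRB1). Among all 1201 RefSeq coding genes of the chromosome outside the ZNF family 37.6% had a peak, and these marker sets are small. CD79A, a signalling chain of the B cell receptor, had 25 reads in Mut4 and 47 in ZHX2 (1.14, 0.672 to 1.89). CD37, a tetraspanin of B cells, had 34 in Mut4 and 44 in ZHX2 (1.65, 1.03 to 2.65). TCF3, the E2A factor of B cell development, had 5 peaks with folds from 0.827 to 1.25. KLF2 had 26 in Mut4 and 94 in ZHX2 (0.592, 0.368 to 0.923), and EPOR, the erythropoietin receptor, had 70 in Mut4 and 93 in ZHX2 (1.61, 1.16 to 2.22). In the longer gene lists shown in the plot, 7 of 9 B cell genes with a peak were higher in Mut4, against 2 of 6 genes of other blood cells, under the authors' scaling. That contrast is between the arms and does not bear on the cell type. A peak marks binding near a gene and not its expression.

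Cytokine, interferon and NF-kappaB genes with a peak numbered 16. Of these, 12 lay on the Mut4 side and 4 on the ZHX2 side, and the median log2 fold was 0.14. The interval lay above 1 at EPOR and at IRF2BP1, a corepressor that partners with IRF2, which had 87 reads in Mut4 and 93 in ZHX2 (2.00, 1.48 to 2.71). It lay below 1 only at ISYNA1, an enzyme of inositol synthesis that does not belong to these pathways. RELB and BCL3, an NF-kappaB subunit and a partner of that family, had folds of 1.07 and 1.00. Around TNFSF9, a ligand of the TNF family, there were 3 peaks. They had 67, 55 and 44 reads in Mut4, against 91, 79 and 79 in ZHX2, and the folds were 1.58 (1.13 to 2.19), 1.49 (1.04 to 2.13) and 1.19 (0.806 to 1.75).

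Genes with 3 or more peaks mostly held both directions. Of these 35 genes 28 had peaks in both directions. RABAC1, SCAMP4, TNFSF9, TICAM1 and KDM4B had 3 of 3 peaks higher in Mut4 under the authors' scaling. BICRA and CSNK1G2 had 3 of 3 peaks lower, with folds from 0.468 to 0.900 at BICRA and from 0.690 to 0.999 at CSNK1G2, and at each of them the interval of 1 peak lay below 1. SBNO2 and POLRMT had the most peaks, 6 each, of which 5 and 4 were lower. The folds of the 6 POLRMT peaks, over 23.5 kb, ran from 0.276 at an intronic peak to 1.43 at an exonic one, so 1 gene name covered both directions. LENG8 had its promoter at 2.98 and an intronic and a transcript-end peak at 0.697 and 0.612.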

How the data were processed

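Chromatin of DB cells was immunoprecipitated with an antibody against ZHX2 and sequenced, in 1 ChIP and 1 input library per arm, grouped by their titles; the inputs were not analysed here. Without giving roles, the submitters' processing notes list MACS2 2.2.6, BWA 0.7.17, the build hg38, deepTools 3.4.3, HOMER, Picard 2.22.2-0, Trim Galore 0.6.4, MultiQC 1.8 and FastQC 0.11.9. The authors deposited 1 table of 8871 peaks with, per the file headers, a log2 fold change (ZHX2 over Mut4) and a mean signal in log2 CPM, a raw and an adjusted p-value, and the group, position and annotation of each peak. Neither the tool behind these values nor whether starts count from 0 or 1 is given in the sources used here. No column of per-sample values was left out (0).

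Reads per library were recovered, after the values had been seen, by solving the deposited log2 fold and log2 CPM for whole numbers, with priors of 0.25 reads in the fold and 2 in the CPM and a dispersion of 0.05. All 8871 of 8871 peaks (100%) came out whole within 1e-09. The recovered totals were 271694 reads for Mut4 and 541900 for ZHX2, with scaling factors of 0.965 and 1.04, so the ZHX2 library counts 2.14 times the Mut4 library. The depth outside those peaks is unknown. The step was checked on simulated data. A fold is the scaled ratio of reads with an exact 95% Clopper-Pearson interval, and no peak here had 0 reads in either library.

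The members and the 18 gene lists were chosen with earlier results of these data known. Named peaks are the 10 largest and 10 smallest folds at or above the median signal (1 per gene), the 5 of highest signal, the 5 of highest signal among the Mut4-only and among the common peaks, up to 4 genes per list with an interval apart from 1, genes with 3 or more peaks, and the first and last peak. Other names, and the 9 sequences, were chosen after their values were seen. A few named results are not reported here. GC content and motifs came from RefSeq start-site windows on GRCh38.p14 that overlap a peak by at least 1 bp, and 85.4% of the peaks had a symbol found in RefSeq. Alternatives covered scaling, signal, length, merging, threshold, interval and window size. Python 3.11.15, pandas 2.3.3, numpy 2.4.6, scipy 1.17.1 and matplotlib 3.10.9 were used.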

Additional observations from a re-analysis of the deposited data

How the results depend on the processing

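Directions rest on the authors' scaling, which cannot be checked with 1 library per arm. With reads left unscaled 4.91% of the peaks were higher in Mut4 and the median log2 fold was -0.98. With the libraries scaled to 52 peaks on unplaced contigs marked in ZHX2 the values were 8.22% and -0.82, and without the strongest of these contig peaks 22.7% and -0.41. Among peaks at or above the median signal they were 65.0% and 0.19. The count past 2-fold was 55 higher and 52 lower. It was 13 and 3 at 4-fold, 13 and 355 unscaled, 13 and 293 on the contig scaling and 17 and 152 without the strongest contig peak. At 4-fold these are 1.72% and 0.40% of the peaks, against 2.07% and 1.24% of all listed peaks, so both shares were below the background. Intervals apart from 1 numbered 122 higher and 73 lower, and 79 and 47 at 99%, 13 and 499 unscaled, 17 and 423 on the contig scaling and 34 and 230 without the strongest contig peak. The contig scalings of these counts were chosen after seeing the data. For the unscaled, contig and 99% settings no share over all listed peaks is given, so those counts do not set the chromosome apart. Promoter peaks made up 69.9% when counted within 1000 bp of a start, and all windows (100%) had a median above 0 at 10 Mb in place of 83.3%. With the strongest peak standing for a gene the list medians turned to -0.088 for kinases and -0.13 for ubiquitin genes.

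Log2 folds of named peaks that turned negative with unscaled reads were -0.58 at FARSA, -0.52 at TNFSF9, -0.51 at ABCA7, -0.49 at RPL36, -0.47 at LONP1, -0.45 at SIPA1L3, -0.44 at TNFSF9, -0.43 at NFIC, -0.41 at EPOR, -0.41 at KDM4B, -0.39 at SUPT5H, -0.37 at CD37, -0.32 at ZFP30, -0.29 at RNASEH2A, -0.22 at PNPLA6, -0.19 at DOT1L, -0.15 at TFPT, -0.14 at SAE1, -0.10 at IRF2BP1, -0.078 at KHSRP, -0.063 at UBE2S, -0.053 at CDC34, -0.050 at MICOS13, -0.047 at DHPS, -0.046 at GTF2F1, -0.043 at LYL1, -0.042 at RPS16 and -0.033 at RPS15. On the contig scaling they were -0.42 at FARSA, -0.37 at TNFSF9, -0.36 at ABCA7, -0.34 at RPL36, -0.32 at LONP1, -0.30 at SIPA1L3, -0.29 at TNFSF9, -0.28 at NFIC, -0.26 at EPOR, -0.26 at KDM4B, -0.24 at SUPT5H, -0.22 at CD37, -0.17 at ZFP30, -0.14 at RNASEH2A, -0.064 at PNPLA6 and -0.039 at DOT1L, and without the strongest contig peak FARSA was at -0.0071. In these cases the change is the constant shift of the scaling. No paired analysis was possible because each arm had 1 ChIP library. Leaving out a replicate was not possible for the same reason. Depth also limits single peaks, since the median peak held 25 reads in Mut4 and 48.5 in ZHX2.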

Other observations

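The remaining gene lists of the chromosome, with 1 peak per gene and under the authors' scaling, were divided. Of 21 DNA repair and replication genes 10 had a peak, 7 of them higher in Mut4 and 3 lower. Their median log2 fold was 0.38. The list counts RTBDN, which has no known place in repair. The counting interval lay above 1 only at RNASEH2A, the catalytic subunit of the RNase that removes ribonucleotides from DNA, with 40 reads in Mut4 and 49 in ZHX2 (1.75, 1.12 to 2.71). Over all 17 peaks of the repair and replication genes it lay above 1 at 2 and below 1 at 3. Of 26 cell cycle, centrosome and kinetochore genes 14 had a peak, 9 of them higher and 5 lower, and the median was 0.10. Of 83 genes of tissue-restricted families on the chromosome 7 had a peak, 4 of them higher and 3 lower. With reads left unscaled every one of these medians falls below 0.

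Peaks near a listed peak with a ZNF name showed no clear difference in direction from the rest. Of 75 peaks within 100 kb of a ZNF peak 48 were higher in Mut4 (64.0%, 52.1 to 74.8%), against 396 of 679 farther away (58.3%, 54.5 to 62.1%), both under the authors' scaling, and these intervals overlap. The overlap does not show equal shares. Only 80 of 250 RefSeq coding ZNF genes of the chromosome had a peak, so this distance is not one to the zinc-finger clusters.

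Neighbouring peaks shared their direction about as often as not. Of 35 pairs less than 1 kb apart 17 had the same direction (48.6%), of 228 pairs 1 to 10 kb apart 118 did (51.8%), of 377 pairs 10 to 100 kb apart 207 did (54.9%), and of 113 pairs farther apart 54 did (47.8%).

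Peaks named for long noncoding RNA genes had a median log2 fold of 0.02 over 76 peaks, and those named for processed pseudogenes 0.55 over 9.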
